A study of Penicillium oxalicum with 6 samples.

Results

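A pair of heat shock protein genes and the cipC gene of the filamentous fungus Penicillium oxalicum were followed across strains with and without mtr23B. The 3 genes are PDE_00175, PDE_02505 and PDE_06802, out of 8902 genes in the deposited table. They were chosen by their tag values in the 3 glucose libraries described here, so those values are given as a description and no test is made on them. All 3 genes reached 10 TPM in at least 1 glucose library, as did 5756 genes in all, and these are the genes called tested. TPM is the number of a gene's tags per 1000000 tags of the library, with no division by gene length.

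Small heat shock proteins are chaperones of the alpha-crystallin family. They bind unfolding proteins without using ATP and hold them until ATP-driven chaperones such as Hsp70 refold them. In fungi their transcripts are known to rise with heat and other stress, and they also belong to resting cells such as conidia. CipC was first described in Aspergillus nidulans as a protein induced by concanamycin, an inhibitor of the vacuolar proton pump, and its molecular function is not settled.

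The names come from best protein matches in the authors' deposited table. PDE_00175 matched the 30-kD heat shock protein of Aspergillus nidulans with an E-value of 5.26e-57, the chance-expected number of matches that good. PDE_02505 matched a putative heat shock protein of Penicillium digitatum with an E-value of 1.23e-44, and the match does not name its family. Small heat shock protein is thus given here only to PDE_00175. PDE_06802 matched the cipC protein of Aspergillus oryzae with an E-value of 4.24e-33. The table also places PDE_00175 and PDE_02505 in the KEGG pathway of protein processing in the endoplasmic reticulum, and PDE_06802 in glutathione metabolism. PDE_00175 alone among them carries the Gene Ontology process response to stress.

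The strains were Dmtr23B, in which mtr23B is knocked out, Rmtr23B, in which it is complemented, and M12, a uracil auxotroph with the pyrGQ226* mutation made from wild-type 114-2 that serves as their parent here. All strains grew first for 20 h in Vogel's salts with 2% glucose (30 °C) and then, after transfer, for 24 h in fresh medium, also with 2% glucose for the libraries used. With 1 glucose library a strain there is no replicate check on any difference, and intervals cover counting error only. A 17-bp tag was read from each captured transcript. The labels do not say where mtr23B was put back in Rmtr23B.

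The 3 glucose libraries were of similar depth, with 2013784 to 2147854 tags in genes, 60.09% to 63.93% of each library. The median of the 5756 tested genes was 0.30 (log2) higher in Dmtr23B than in M12, 0.46 higher in Dmtr23B than in Rmtr23B, and 0.15 lower in Rmtr23B than in M12. Another 3 libraries were made from the same strains in cellulose and wheat bran. Their values did not follow the gene identifiers of the table: across 8902 rows the correlation of log2 values between media was -0.01 in M12 (Pearson), against 0.95 between Rmtr23B and M12 in glucose, and gene values in that medium are not used here. The level of mtr23B itself was not analysed here, since the labels give no identifier for it.

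PDE_00175, the 30-kD heat shock protein, was low in the strain without mtr23B. It had 37.6 TPM in Dmtr23B, 240.8 TPM in Rmtr23B and 1016 TPM in M12. These values rest on 126 tags in Dmtr23B, 809 in Rmtr23B and 3414 in M12, and their exact Poisson intervals, 31.3 to 44.8, 224.5 to 258 and 982.4 to 1051 TPM in the same order, do not overlap. The level was thus lowest in the deletion strain, intermediate in the complemented strain and highest in the parent. PDE_00175 was 27.0-fold lower in Dmtr23B than in M12 (95% binomial interval 22.6 to 32.5) and 6.40-fold lower than in Rmtr23B (5.30 to 7.79). Its transcripts made up 0.00626% of gene tags in Dmtr23B, 0.0377% in Rmtr23B and 0.167% in M12. In mycelium of a whole culture, fewer cells that express a gene and less RNA per cell cannot be told apart.

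PDE_02505, the putative heat shock protein, was also low in the deletion strain but stood near the parental level in the complemented strain. It had 41.5 TPM in Dmtr23B (139 tags), 251.5 TPM in Rmtr23B (845 tags) and 314.9 TPM in M12 (1058 tags). The gene was 7.59-fold lower in Dmtr23B than in M12 (6.36 to 9.13) and 6.06-fold lower than in Rmtr23B (5.06 to 7.31). The Poisson intervals, of counting error only, were 34.9 to 48.97 TPM in Dmtr23B, 234.8 to 269.1 TPM in Rmtr23B and 296.2 to 334.5 TPM in M12.

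PDE_06802, the cipC gene, ran the other way. It had 1516 TPM in Dmtr23B (5080 tags), 146.1 TPM in Rmtr23B (491 tags) and 187.2 TPM in M12 (629 tags). The deletion strain stood apart and the other libraries lay close to each other. The gene was 8.10-fold higher in Dmtr23B than in M12 (7.45 to 8.81) and 10.4-fold higher than in Rmtr23B (9.45 to 11.4). It held 0.252% of all gene tags in Dmtr23B, 0.0229% in Rmtr23B and 0.0307% in M12.

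**Figure D1:**
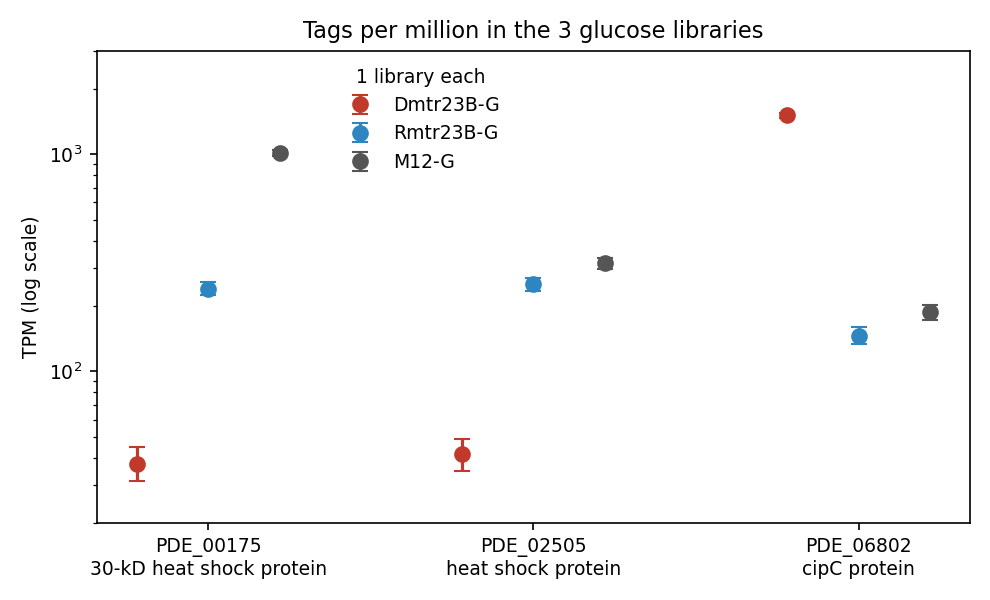
TPM of the 3 genes on a log axis in Dmtr23B, Rmtr23B and M12 grown in glucose, 1 library each, with exact 95% Poisson intervals of the tag counts as bars. PDE_00175 and PDE_02505 lie at 37.6 and 41.5 TPM in Dmtr23B, below both other strains, while PDE_06802 lies at 1516 TPM there, above both.

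By a rule of size, at least 2-fold from both other strains on the TPM + 1 scale, PDE_00175 and PDE_02505 were lower and PDE_06802 was higher in Dmtr23B. Over all tested genes 7.82% were lower (450) and 10.8% were higher (623) by the same rule, and since these values chose the 3 genes nothing is read from their count. With the libraries scaled to their median ratio the split was 608 lower and 328 higher, and with TMM scaling 620 lower and 314 higher. The direction of PDE_00175, PDE_02505 and PDE_06802 in Dmtr23B was the same under both scalings. Relative to the median gene, the difference between Dmtr23B and M12 on the log2(TPM + 1) scale was -5.02 for PDE_00175, -3.19 for PDE_02505 and 2.71 for PDE_06802. Set against Rmtr23B in place of M12, these relative differences were -3.10, -3.03 and 2.91 for the same genes. The heat shock genes therefore lay close together when the complemented strain was the control and apart when the parent was. Of 5599 genes that could be compared between Dmtr23B and M12, 50 had a difference below that of PDE_00175, 178 below that of PDE_02505, and 42 above that of PDE_06802. These ranks rest on the values that chose the genes and are only a description.

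The complemented strain differed in how near it came to the parent for these genes. PDE_00175 was 4.22-fold lower in Rmtr23B than in M12 (3.91 to 4.56). PDE_02505 was 1.25-fold lower (1.14 to 1.37) and PDE_06802 was 1.28-fold lower (1.14 to 1.44). The intervals of the last pair do not include 1, but relative to the median gene their log2 differences were -0.17 and -0.21, against -1.92 for PDE_00175. PDE_00175 was the sole gene of the 3 past 2-fold lower in Rmtr23B than in M12, a size that 10.8% of 5226 genes reached, and none was past 2-fold higher, which 4.52% reached. These comparisons share the M12 or the Rmtr23B library with those above and are not independent of them. Whether the gap for PDE_00175 is one of strain or of culture cannot be told apart with 1 library for each.

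**Figure D2:**
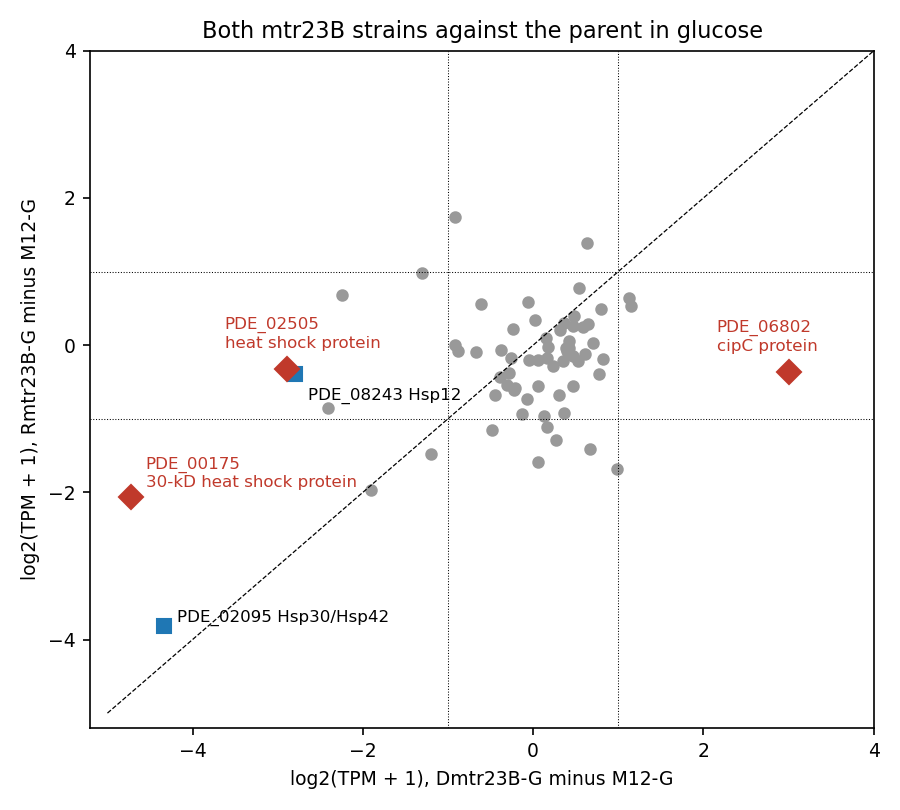
Difference from M12 on the log2(TPM + 1) scale in Dmtr23B (horizontal) and Rmtr23B (vertical) for the 3 genes (red diamonds), PDE_02095 and PDE_08243 (blue squares) and other stress genes (grey), in glucose. Dotted lines mark 2-fold and the dashed line equal differences. PDE_02505 and PDE_06802 lie near 0 in Rmtr23B, while PDE_00175 lies at -2.07 and PDE_02095 near the dashed line.

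The list of small heat shock protein descriptions held 2 other tested genes, PDE_02095 and PDE_08243, of which PDE_08243 was lower in Dmtr23B than in both other strains and PDE_02095 was not, beside 7.82% of all tested genes. PDE_02095, described as Hsp30/Hsp42, had 22.4 TPM in Dmtr23B (75 tags), 32.4 TPM in Rmtr23B (109 tags) and 470.6 TPM in M12 (1581 tags). It was 21.0-fold lower in Dmtr23B than in M12 (16.7 to 26.9), close to the 27.0-fold of PDE_00175, but also 14.5-fold lower in Rmtr23B than in M12 (11.9 to 17.8), where PDE_00175 was 4.22-fold lower. The complemented strain thus lay near the deletion strain for PDE_02095, between the others for PDE_00175 and near the parent for PDE_02505. PDE_08243, described as Hsp12, in Saccharomyces cerevisiae a small membrane-associated stress protein that is no alpha-crystallin, had only 2 tags in Dmtr23B against 25 in Rmtr23B and 34 in M12. It was 17.0-fold lower in Dmtr23B than in M12 (4.35 to 146) and 1.36-fold lower in Rmtr23B than in M12 (0.788 to 2.38), and both intervals include the folds of PDE_02505.

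Other chaperones and their helpers were compared with PDE_00175 and PDE_02505. None of 3 tested genes described as Hsp70 or Hsp110, 3 as Hsp90 or its partners, 11 as chaperonins and 7 as J-domain proteins or exchange factors was 2-fold lower or higher in Dmtr23B than in both others, beside 7.82% lower and 10.8% higher of all tested genes. With so few genes in each list, nothing particular to chaperones is read from these counts. Their median log2 differences from the mean of the other strains were 0.54, 0.05, 0.37 and 0.21 in that order, beside 0.38 for all tested genes and -3.68 for PDE_00175. Hsp90 (PDE_09149), a chaperone of signalling proteins, had 882.1 TPM in Dmtr23B, 790.8 TPM in Rmtr23B and 914.1 TPM in M12, and Hsp88 (PDE_00703), an Hsp110-type exchange factor, had 65.1, 60.4 and 52.1 TPM in the same order. Mitochondrial Hsp60 (PDE_04315) had 133.4 TPM in Dmtr23B, 44.7 TPM in Rmtr23B and 111.0 TPM in M12, and the ribosome-associated J-protein Zuotin (PDE_01365) had 191.9, 225.9 and 131.9 TPM. Matching was by description, which took in a signal peptidase subunit among Hsp90 partners, prefoldin subunits (PDE_00428 and PDE_04960) among chaperonins and a CwfJ protein among J-domain proteins. Another 3 tested genes with heat shock or chaperone descriptions outside the lists, chosen after their values were seen, were not apart from both other strains. PDE_00987, described as heat shock protein, had 331.8 TPM in Dmtr23B, 558.7 TPM in Rmtr23B and 213.1 TPM in M12. PDE_00624, described as chaperone protein, had 30.7 TPM in Dmtr23B, 29.5 TPM in Rmtr23B and 118.2 TPM in M12, and was thus 3.84-fold lower in Dmtr23B than in M12 (3.09 to 4.82) and 4.01-fold lower in Rmtr23B than in M12 (3.21 to 5.05). The vacuolar transporter chaperone Vtc4 (PDE_04343) had 25.7 TPM in Dmtr23B, 16.4 TPM in Rmtr23B and 11.0 TPM in M12.

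Differences of other tested stress genes between Dmtr23B and the mean of the other strains ran from -2.60 to 1.83 on the log2(TPM + 1) scale. PDE_00175, PDE_02505 and PDE_06802 lay outside that range, but these values had chosen them, so nothing is read from it. The scale also shrinks the differences of genes with few tags such as Hsp12. Against M12 alone, PDE_02095 (-4.33) lay farther from 0 than PDE_02505 (-2.89) and PDE_06802 (3.01). Over all 61 tested genes of the stress lists, PDE_00175, PDE_02505 and PDE_06802 left out, 4 were lower in Dmtr23B than in both others (6.56%, beside 7.82% of all genes) and 0 were higher (beside 10.8%). With median-ratio and with TMM scaling 7 of the stress genes were lower, beside 608 and 620 over all genes. The count over all genes rose under these scalings too, so nothing particular to stress genes is read from the rise. Besides Hsp12, the genes lower by size were a glutathione S-transferase family protein (PDE_01194), with 3.28 TPM in Dmtr23B, 31.6 TPM in Rmtr23B and 19.4 TPM in M12, the spore-specific catalase CatA (PDE_05708), with 2.39, 8.93 and 16.97 TPM, and neutral trehalase (PDE_08296), which breaks down the storage sugar trehalose, with 11.9, 61.9 and 30.96 TPM. The tested genes of superoxide and peroxide enzymes had a median of 0.09 (log2), those of trehalose and glycerol 0.03 and the stress regulators 0.40. Manganese superoxide dismutase (PDE_00326), which removes superoxide in mitochondria, had 7234 TPM in Dmtr23B, 4590 TPM in Rmtr23B and 7621 TPM in M12. The protein with a DNA-binding domain of the heat shock factor type (PDE_05764) had 20.3 TPM in Dmtr23B (68 tags), 9.52 TPM in Rmtr23B (32 tags) and 11.0 TPM in M12 (37 tags). Its level in Dmtr23B is not 2-fold from M12. The direction is opposite to PDE_00175 and PDE_02505, but the median gene shared it. On the log2(TPM + 1) scale PDE_05764 was 0.83 above M12 and 1.02 above Rmtr23B, beside 0.30 and 0.46 for the median gene. The stress response peptide PDE_09468 had 221.4, 126.2 and 242.3 TPM, glycerol dehydrogenase GldB (PDE_08572) 485.8, 75.3 and 244.4 TPM, and the Grg1 match (PDE_08540), in Neurospora crassa the product of a glucose-repressed gene, 1695, 1399 and 3900 TPM in Dmtr23B, Rmtr23B and M12.

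**Figure D3:**
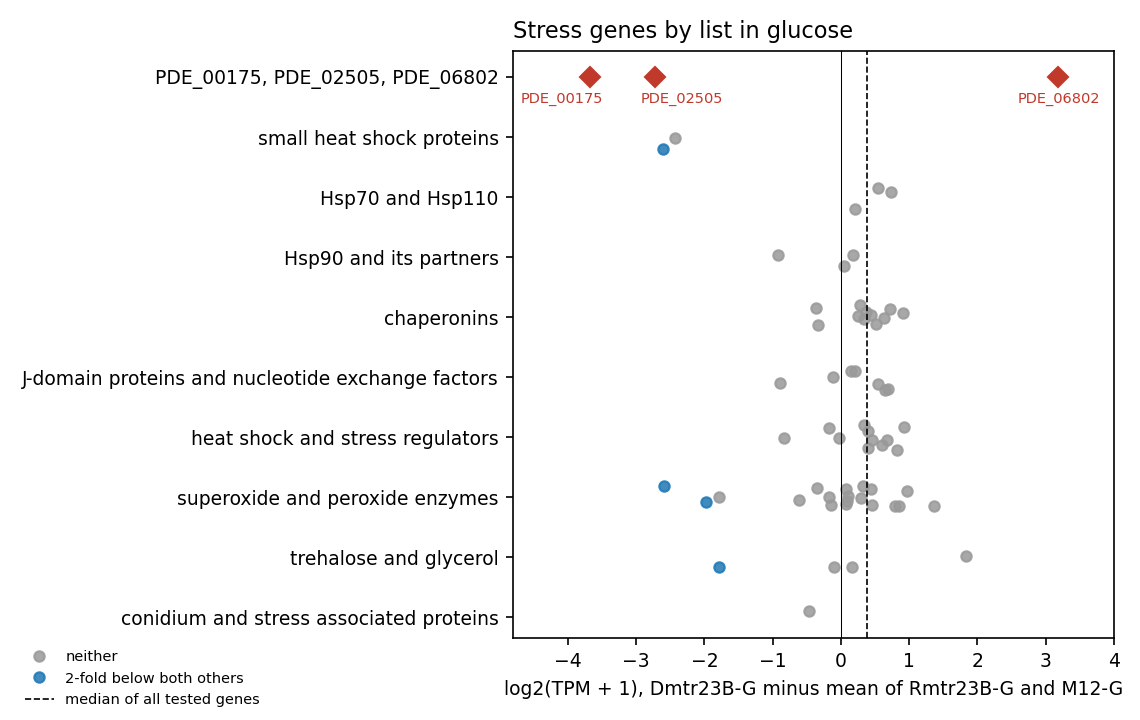
Difference between Dmtr23B and the mean of Rmtr23B and M12 on the log2(TPM + 1) scale for the 3 genes (red diamonds) and for tested genes of 9 stress lists (points, blue where 2-fold below both others), with the median of all tested genes at 0.38 as a dashed line. PDE_00175 at -3.68, PDE_02505 at -2.73 and PDE_06802 at 3.19, chosen by their values, lie outside the range of the lists, -2.60 to 1.83.

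The pathways that the table assigns to these genes were looked at after the values were seen, and their shares of called genes are read against the 7.82% lower and 10.8% higher of all tested genes. Among the other tested genes in protein processing in the endoplasmic reticulum, the pathway of PDE_00175 and PDE_02505, 6 (5.77%) were lower and 5 (4.81%) higher in Dmtr23B than in both others, with a median of 0.40 (log2). Of 34 others in glutathione metabolism, the pathway given for PDE_06802, 3 (8.82%) were lower and 5 (14.7%) higher, with a median of 0.23. Of 18 other tested genes with the process response to stress, which PDE_00175 carries, 1 was lower and 1 higher (5.56% each), with a median of 0.27. With so few genes called, these shares are not set apart from those of all genes.

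Most markers of conidia, the asexual spores, were, like PDE_00175 and PDE_02505, low in Dmtr23B, but RodA and WetA were not. Of 7 such markers, known from earlier results of these data, 6 were tested and 5 were lower in Dmtr23B than in both others, beside 7.82% of all tested genes, a count that is no independent support since the markers were known from these data. Among them was the regulator BrlA (PDE_00087) with 5.37 TPM in Dmtr23B, 89.3 TPM in Rmtr23B and 90.5 TPM in M12. Without the hydrophobin RodA, the summed level of these markers was 76.4 TPM in Dmtr23B, 1168 TPM in Rmtr23B and 1194 TPM in M12, and with it 1465, 1980 and 2781 TPM. RodA (PDE_00021) was not apart, with 1388 TPM in Dmtr23B, above the 812.3 TPM in Rmtr23B and below the 1586.5 TPM in M12. WetA (PDE_08333) was under the minimum and highest in Dmtr23B, with 8 tags there, 5 in Rmtr23B and 3 in M12. No marker was at 0 in Dmtr23B. In Rmtr23B the sum thus lay near that of M12 without RodA and farther below it with RodA. No likeness to PDE_02505 or PDE_00175 is read from it. The part of conidia in these values was not tested.

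Genes with the most similar profile to each of the 3 were sought by the distance between log2(TPM + 1) values over the 3 libraries, each gene centred on its own mean, among 5753 other tested genes. With 3 values a gene this is only a description, and the nearest genes of PDE_00175 and PDE_02505 depend on the pseudocount: with 5 TPM in place of 1 TPM, 1 of the 3 named for PDE_00175 and 0 of the 3 named for PDE_02505 stayed nearest, and with 0.1 TPM 1 for each. Nearest to PDE_02505 among genes with a described product were Hsp12 (PDE_08243, distance 0.12, with only 2 tags in Dmtr23B and an unshrunk fold of 17.0 against the 7.59 of PDE_02505), cysteine dioxygenase (PDE_04527, 0.14), which oxidises cysteine, and the secreted protease penicillolysin (PDE_07936, 0.24). PDE_04527 had 8.65 TPM in Dmtr23B, 53.9 TPM in Rmtr23B and 77.7 TPM in M12. The distances of PDE_00175 to its nearest genes were larger. N,O-diacetylmuramidase (PDE_03296, 0.58) had 24.2 TPM in Dmtr23B, 136.6 TPM in Rmtr23B and 382.5 TPM in M12. Then came an MFS multidrug transporter (PDE_03248, 0.61) and the sulfite pump SSU1 (PDE_04529, 0.63). SSU1 had 0 tags in Dmtr23B, 14 in Rmtr23B and 45 in M12. Nearest to PDE_06802 were a maltose transporter (PDE_09994, 0.07), with 307.4, 27.4 and 37.8 TPM in Dmtr23B, Rmtr23B and M12, a C-4 methylsterol oxidase (PDE_04616, 0.21) of sterol synthesis and a polygalacturonase (PDE_03218, 0.26), which cuts pectin. PDE_00175 and PDE_02505 were 1.46 from each other, and PDE_06802 was 5.74 from PDE_00175 and 4.83 from PDE_02505.

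Genes with nearby locus numbers were set beside each of the 3 genes, and their counts are read against the 7.82% lower and 10.8% higher of all tested genes. Locus numbers stand in here for position, since no genome of this strain was used. Of 10 genes within 5 locus numbers of PDE_02505, 6 were tested and none was 2-fold lower or higher in Dmtr23B than in both others. Around PDE_00175, 6 of 10 were tested and 1 was lower, PDE_00171, which has no described product and had 2.98 TPM in Dmtr23B (10 tags), 11.9 TPM in Rmtr23B (40 tags) and 12.2 TPM in M12 (41 tags). Around PDE_06802, 6 of 9 were tested and 2 were higher. With 6 tested genes around each, no count is set apart from the share over all genes. The higher ones were a phospholipid methyltransferase (PDE_06798), an enzyme type of membrane lipid synthesis, with 143.8 TPM in Dmtr23B, 25.9 TPM in Rmtr23B and 55.4 TPM in M12, and PDE_06800, with no described product, with 481.3, 74.1 and 123.5 TPM. PDE_06800 was 3.90-fold higher in Dmtr23B than in M12 (3.50 to 4.35), less than the 8.10-fold of PDE_06802. PDE_06801, between PDE_06800 and PDE_06802 by number, is listed at 0 in all 3 libraries.

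**Figure D4:**
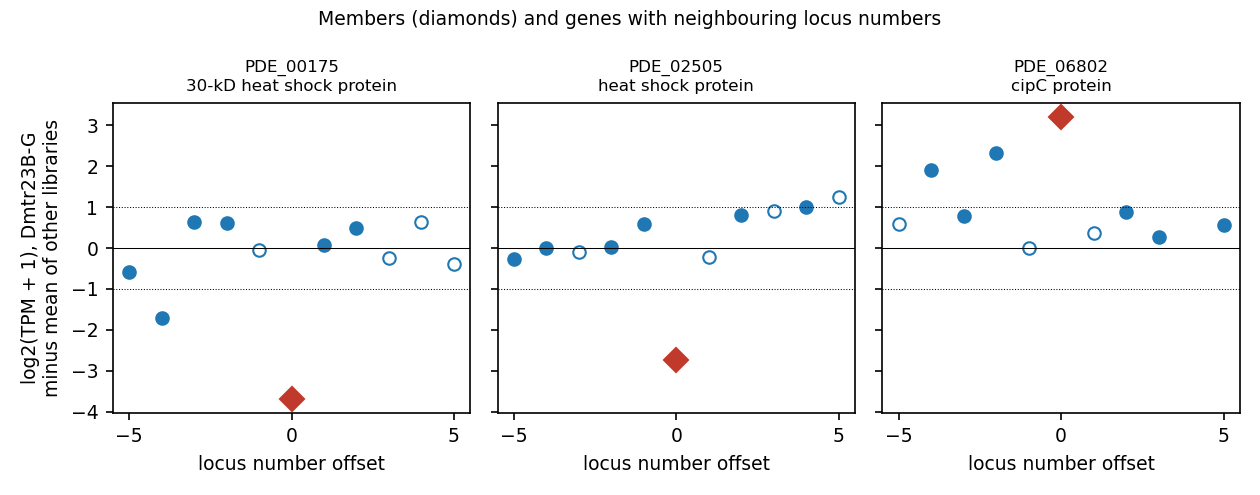
Difference between Dmtr23B and the mean of Rmtr23B and M12 on the log2(TPM + 1) scale for each of the 3 genes (diamonds) and for genes up to 5 locus numbers away (circles, open where under 10 TPM in all glucose libraries). Dotted lines mark 2-fold. PDE_02505 has no tested neighbour past 2-fold from both others, PDE_00175 has 1 below, and PDE_06802 has 2 above on its lower-numbered side.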

How the data were processed

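Digital gene expression tag libraries of 3 P. oxalicum strains in 2 media were analysed, 1 library for each strain and medium. Per the labels' protocols, NlaIII cut cDNA at CATG and MmeI released 17-bp tags, read as 35-bp Illumina reads. The authors deposited raw tag counts and TPM per gene, and TPM equals the count per 1000000 tags of the library total in the file headers, to within 0.005 TPM. For the mapper, genome build, annotation version, use of strand and treatment of shared tags, nothing was given in the sources used here, so values of gene family members and overlapping genes are uncertain. The reference table held none of the 8902 identifiers, so no positions or sequences are given. Rows without identifier (282 of 9184) were left out.

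Genes with at least 10 TPM (33.5 to 33.6 tags) in any compared library were tested by size, 2-fold on the TPM + 1 scale. Ratios have exact binomial and shares exact Clopper-Pearson or Poisson 95% intervals. Alternatives were other scalings, pseudocounts, minima and folds. Another was edgeR 4.0.16 (quasi-likelihood test with Benjamini-Hochberg adjustment, R 4.3.3) on the deposited counts, which takes Rmtr23B and M12 as 2 samples that carry mtr23B. Its p-values rest on the spread of that pair of libraries alone. Python 3.11.15, scipy 1.17.1 and pandas 2.3.3 were used.

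The 3 genes and the 10 stress lists, matched by patterns in the product description, were chosen with earlier results of these data known, and 9 lists had a match besides the 3 genes (none described an Hsp100 protein). From each list the text names the gene with the highest mean TPM, up to 4 genes apart in Dmtr23B, and any heat shock factor or small heat shock protein. It also names for each of the 3 genes the 3 nearest with a described product, and neighbours apart in Dmtr23B.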

Additional observations from a re-analysis of the deposited data

How the results depend on the processing

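The 9 pairwise log2 differences of PDE_00175, PDE_02505 and PDE_06802 kept their sign under other scalings and pseudocounts, and 33 of 45 recomputed values stayed within the counting interval. The other 12, all under median-ratio or TMM scaling, were for Dmtr23B minus Rmtr23B -3.08 and -3.09 in PDE_00175, -3.0 and -3.02 in PDE_02505, and 2.93 and 2.91 in PDE_06802, for Dmtr23B minus M12 2.74 and 2.71 in PDE_06802, and for Rmtr23B minus M12 -1.91 and -1.92 in PDE_00175 and -0.16 and -0.17 in PDE_02505. Both scalings bring the median gene near equality, so higher values in Dmtr23B shrink by construction.

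Over all genes, 450 were lower and 623 higher in Dmtr23B. The counts were 608 lower and 328 higher under median-ratio scaling and 620 and 314 under TMM, and the higher count was 415 with a minimum of 30 TPM and 1453 against Rmtr23B alone. A 4-fold rule gave 232 lower and 129 higher, and edgeR (adjusted p under 0.05) 195 lower and 76 higher. In the stress lists 4 were lower and 0 higher. Lower counts were 7 under median-ratio scaling, 7 under TMM, 2 with a minimum of 30 TPM and 2 at 4-fold. Over all genes the lower counts in that order were 608, 620, 326 and 232. The 4 genes lower by size had edgeR log2 differences of -4.15 (Hsp12), -3.33 (PDE_01194), -2.78 (PDE_05708) and -2.36 (PDE_08296). These are effect sizes only, with 1 Dmtr23B library, and not all of these genes passed the edgeR threshold. Higher counts were 1 with scaling to tags in genes, 1 against M12 alone and 10 against Rmtr23B alone. Over all genes these were 781, 817 and 1453. The counts over all genes moved with the settings too, and nothing particular to the stress lists is read from any of these counts.

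Between Rmtr23B and M12, 566 genes were lower and 236 higher, against 895 and 441 with no minimum, 351 and 146 with a minimum of 30 TPM, and 79 and 41 at 4-fold. In the stress lists 8 of 59 tested genes were lower and 1 higher, beside 10.8% and 4.52% of all genes, and nothing particular to them is read from these counts. At 4-fold 1 was lower and 0 higher. Under median-ratio scaling, under TMM and with no minimum 2 were higher, beside 348, 342 and 441 over all genes. These counts for Rmtr23B and M12, with all their settings, were chosen after seeing the data, as were TMM scaling and the pseudocount of 0.1 TPM for the nearest genes. The nearest genes changed with the pseudocount: at 5 TPM 1 of 3 stayed for PDE_00175 and 0 for PDE_02505, and at 0.1 TPM 1 for each, while those of PDE_06802 kept at least 2 of 3. Leaving out descriptions of other proteins from the stress lists was also added after seeing the data and left 4 lower and 0 higher in Dmtr23B. No paired analysis was possible because each strain has 1 glucose library. Hsp12 (2 tags in Dmtr23B) and other genes with few tags are limited by depth.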
